A study of Mus musculus with 2 samples.

Results

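The genes described here are 10 genes by which eosinophils, basophils and mast cells are commonly recognised, namely Prg2, Prg3, Epx, Ear2, Siglecf, Mcpt8, Cpa3, Fcer1a, Ms4a2 and Hdc. They were found by gene symbol, and all 10 had a row among the 20938 genes of both deposited tables. The tables came from RNA-seq of splenic CD4+CD25+ Treg cells, isolated on day 7 after islets of BALB/c mice had been placed under the kidney capsule of recipients made diabetic with streptozotocin. One library came from Foxp3-Mettl14f/+ cKO mice, in which Cre under the Foxp3 promoter deletes 1 of the 2 alleles of Mettl14 in Treg cells. The other library came from littermate controls, which the study's methods give as Mettl14f/f and the labels call wild type. Recipients were on the C57BL/6J background and neither group received the tolerizing antibodies against CD45RB and CD40L. The labels call the genotype of the cKO library a Foxp3 knockdown, whereas the study's methods give Foxp3-Mettl14f/+ cKO, which is used here. The age of the animals and the number pooled in a library were not given in the sources used here.

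Eosinophils store cationic proteins, a peroxidase and ribonucleases in their granules, and basophils and mast cells store histamine and proteases, which they release when IgE on their surface is crosslinked through the high-affinity IgE receptor. Eosinophils and basophils circulate and pass through the spleen, while mast cells mature in tissues. The Treg cells were enriched with magnetic beads, by a depletion of cells other than CD4+ T cells followed by a positive selection, and the authors checked their purity by flow cytometry. Which cells the reads of the 10 genes came from was not tested.

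Dividing the deposited values by the value of 1 read gave 20239325 control reads and 18327535 cKO reads, that is, reads of the respective library. A level below is a deposited value, that is, reads divided by the size factor of the library. Mettl14, the targeted gene, had 948 control and 652 cKO reads, a log2 change of -0.31 (95% interval -0.45 to -0.16), and Foxp3 had 1547 and 1361 reads, a log2 fold change of 0.05. The defining markers of T cells were present, with 79195 control and 54450 cKO reads over 16 T cell core genes. Markers of other cells were present too, and 12 neutrophil granule genes held more reads, 258826 and 299228. There was 1 library for each genotype, so no difference below has a replicate check, and the 95% intervals, which are exact Clopper-Pearson intervals on the reads, cover counting error only. The floor was set at 3 reads, or 0.148 and 0.164 per 1000000 reads of the control and cKO libraries. Where a pair of values is given without further words, the control library comes first. Gene positions are those of GENCODE vM21 on GRCm38. In a bulk sample, fewer cells of a type and less RNA per cell cannot be told apart.

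The 10 genes did not move together. Prg2, Epx, Cpa3 and Fcer1a were at least 1.5-fold lower in the cKO library, Prg3, Ear2 and Hdc were at least 1.5-fold higher, and Siglecf, Mcpt8 and Ms4a2 lay under 1.5-fold. Changes are on the scale log2(level + 1), which understates those of low genes. Of the 16659 genes whose mean level reached 1, 24.2% were lower and 17.2% higher by that measure, and a count of 4 lower and 3 higher of 10 is read against those shares and is no result about the genes as a group. Their median log2 fold change was -0.11, against -0.04 over all genes tested, and all 10 passed the filter on low values. On the reads, a two-sided exact binomial test, which compares these libraries and not the genotypes, called the same 4 genes lower and Prg3 and Ear2 higher, against a background of 18.0% lower and 14.2% higher of 14863 genes. An edgeR exact test with an assumed coefficient of variation of 0.4 called 0 of the 10 genes in either direction, against 3.83% lower and 1.54% higher of the same genes. Summed, the 10 genes held 3635 control and 3448 cKO reads, a log2 change of 0.16 (95% interval 0.09 to 0.23). Hdc supplied more than any other of these genes, and without it the log2 change of the sum was -0.52.

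**Figure D1:**
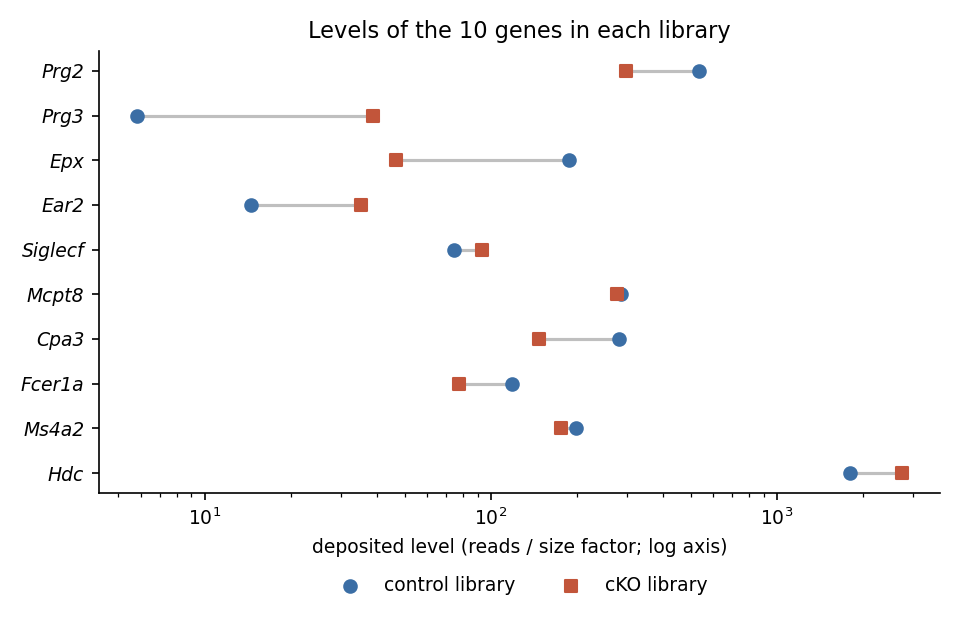
Deposited level (reads divided by the size factor, log axis) of each of the 10 genes, with a circle for the control library and a square for the cKO library. Hdc was the most abundant in both, with 1811 and 2733, and Prg3 moved furthest, from 5.80 to 38.7.

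Promoter sequences are shown for 4 of the genes because they span the range of matches to GATAA, the core that GATA factors recognise. GATA1 and GATA2 are transcription factors of the eosinophil, basophil and mast cell lineages. The windows are from RefSeq and run from 250 bases before to 50 bases after the annotated start, 5′ to 3′ on the strand of the gene, with matches to GATAA on either strand in capitals (TTATC is the same motif read on the other strand).
Ms4a2 promoter, GRCm38.p6 chr19:11623670-11623969, minus strand: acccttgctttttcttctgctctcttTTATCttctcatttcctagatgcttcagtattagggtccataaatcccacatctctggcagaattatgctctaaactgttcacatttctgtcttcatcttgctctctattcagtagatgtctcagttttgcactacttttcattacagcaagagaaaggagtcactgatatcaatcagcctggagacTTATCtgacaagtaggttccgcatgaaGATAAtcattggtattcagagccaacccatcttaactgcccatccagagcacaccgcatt
Prg3 promoter, GRCm38.p6 chr2:84987965-84988264, plus strand: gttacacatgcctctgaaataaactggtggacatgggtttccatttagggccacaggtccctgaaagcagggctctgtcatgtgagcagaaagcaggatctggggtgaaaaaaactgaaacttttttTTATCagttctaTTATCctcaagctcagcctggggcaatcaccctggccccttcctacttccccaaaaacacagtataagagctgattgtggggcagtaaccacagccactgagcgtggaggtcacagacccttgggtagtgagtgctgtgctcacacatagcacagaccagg
Cpa3 promoter, GRCm38.p6 chr3:20242132-20242431, minus strand: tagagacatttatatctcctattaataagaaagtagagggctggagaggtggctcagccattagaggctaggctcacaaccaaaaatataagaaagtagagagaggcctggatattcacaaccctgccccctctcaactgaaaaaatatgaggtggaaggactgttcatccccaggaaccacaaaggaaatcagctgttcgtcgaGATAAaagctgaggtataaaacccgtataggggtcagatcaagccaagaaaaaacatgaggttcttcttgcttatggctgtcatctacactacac
Epx promoter, GRCm38.p6 chr11:87875487-87875786, minus strand: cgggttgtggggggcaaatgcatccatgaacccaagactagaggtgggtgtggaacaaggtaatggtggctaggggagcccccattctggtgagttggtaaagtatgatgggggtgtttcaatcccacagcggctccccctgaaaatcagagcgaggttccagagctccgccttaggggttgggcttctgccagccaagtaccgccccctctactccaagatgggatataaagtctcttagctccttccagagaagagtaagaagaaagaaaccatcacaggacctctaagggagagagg
Ms4a2 held 3 matches, Prg3 held 2, Cpa3 held 1 and Epx held 0. Of the 10 genes, 9 matched a window in the table, all but Prg2, and 6 of these 9 windows held GATAA, against 25.4% of all 32851 windows. The 6 were those of Prg3, Ear2, Siglecf, Cpa3, Fcer1a and Ms4a2, and the windows of Epx, Mcpt8 and Hdc had no match. The match in Cpa3 began at position -45 from the start and those in Ms4a2 at -224, -37 and -10. The narrower forms AGATAA and TGATAA, which contain GATAA, were found in 3 and 2 of the 9 windows, against 11.2% and 9.05% of all windows. TTGCNNAA, read by C/EBP factors, was found in the windows of Ear2 and Fcer1a, against 10.8% of all, and its palindrome TTGCGCAA in 0, against 0.183%. CANNTG, the E box, was found in 8 of the 9 windows, against 72.3% of all. GGAAGT, an ETS factor core, was in the windows of Prg3 and Siglecf, against 23.8%, and TGAGTCA, the AP-1 site, was in 0, against 5.20%. These 8 motifs were searched on both strands. Windows with GATAA included genes that were higher (Prg3, Ear2), lower (Cpa3, Fcer1a) and under 1.5-fold (Siglecf, Ms4a2), so the presence of the match did not separate the directions.

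**Figure D2:**
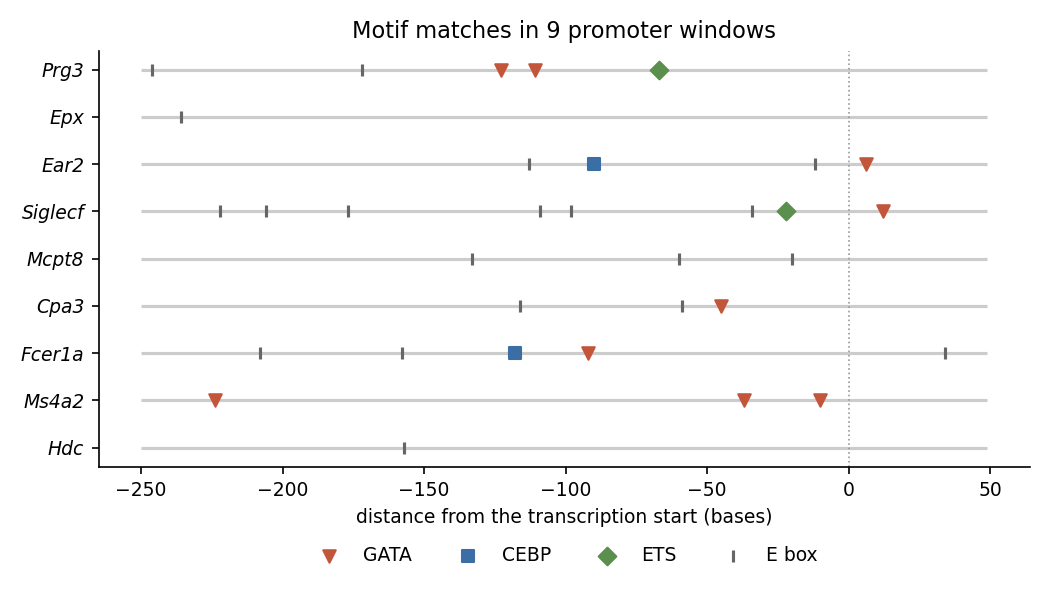
Matches to 4 motifs in the 9 promoter windows, by distance of the first base of the match from the transcription start. GATAA lay in 6 of the 9 windows, with 3 matches in Ms4a2, and E boxes lay in 8.

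The eosinophil granule genes went in opposite directions. Prg2, the major basic protein of the eosinophil granule, had 555 control and 261 cKO reads, at levels of 537 and 297. That was a log2 change of -0.85 (95% interval -1.07 to -0.64), or 1.81-fold lower. Epx, the eosinophil peroxidase (chromosome 11, 87864000 to 87875536, minus strand), had 195 control and 41 cKO reads, at levels of 189 and 46.6, and its log2 fold change of -1.99 (95% interval -2.54 to -1.52) was the largest fall among the 10 genes. Prg3, a close relative of Prg2, moved the other way, from 6 reads in the control library to 34 in the cKO library, at levels of 5.80 and 38.7. Its log2 fold change was 2.54 (95% interval 1.47 to 4.28), the largest rise among the 10 genes, and rested on few reads. Prg2 and Prg3 lie side by side on chromosome 2 of GRCm38, from 84980461 to 84983632 and from 84988215 to 84993886 on the plus strand, with 4582 bases between them. Their coding sequences were 62.3% identical with a longest shared run of 23 bases. Within a library, where no scaling enters, there were 92.5 Prg2 reads for each Prg3 read in control and 7.68 in cKO, a ratio 12.0-fold lower (95% interval 4.90 to 35.5).

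Ear2, an eosinophil-associated ribonuclease (chromosome 14, 44102654 to 44103534, plus strand), had 15 control and 31 cKO reads, at levels of 14.5 and 35.3, a log2 change of 1.22 (95% interval 0.35 to 2.28). Ear1 and Ear10, on the same chromosome, are near-identical to Ear2, and its value is uncertain because the counting could split reads among them. The start of the coding sequence shows how little separates the 3 genes, with bases that differ from Ear2 in capitals (GENCODE vM21, GRCm38, 5′ to 3′).
Ear2 coding bases 1 to 90: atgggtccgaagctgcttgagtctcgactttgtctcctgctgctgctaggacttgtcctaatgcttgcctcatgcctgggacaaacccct
Ear1 coding bases 1 to 90: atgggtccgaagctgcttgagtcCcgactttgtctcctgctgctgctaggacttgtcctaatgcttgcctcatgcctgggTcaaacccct
Ear10 coding bases 1 to 90: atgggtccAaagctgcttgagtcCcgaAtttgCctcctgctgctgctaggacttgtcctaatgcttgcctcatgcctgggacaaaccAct
Ear1 differed from Ear2 at 2 of these 90 bases and Ear10 at 5. Over the whole coding sequence Ear2 was 95.1% identical to Ear1, with a longest shared run of 96 bases, and 97.0% identical to Ear10, with a longest shared run of 185 bases. Identity to Ear6 and Ear14 was lower, at 87.6% and 77.8%. Ear1 had 16 reads in control and 1 in cKO, opposite to Ear2. Ear2 also overlaps Gm49101, a long noncoding RNA on the opposite strand without a row in the tables.

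Siglecf, a sialic acid-binding receptor on the surface of eosinophils (chromosome 7, 43351341 to 43359531, plus strand), had 77 control and 82 cKO reads. Its levels were 74.5 and 93.2, a log2 fold change of 0.32 whose interval of -0.14 to 0.79 included 0. Siglecf therefore did not follow Epx. There were 0.395 Siglecf reads for each Epx read in control and 2.0 in cKO, a 5.06-fold higher ratio (95% interval 3.13 to 8.24). Prg2 fell less than Epx, and the ratio of Prg2 to Epx was 2.85 and 6.37, a 2.24-fold rise (95% interval 1.53 to 3.31).

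The granule proteases of basophils and mast cells also differed from each other. Mcpt8, a serine protease made by basophils (chromosome 14, 56082166 to 56085273, minus strand), had 295 control and 243 cKO reads. Its levels of 285 and 276 gave a log2 change of -0.05 (95% interval -0.30 to 0.20). Cpa3, a carboxypeptidase of basophils, mast cells and their precursors (chromosome 3, 20215620 to 20242181, minus strand), had 291 and 130 reads, at levels of 282 and 148, a log2 change of -0.92 (95% interval -1.24 to -0.63). Mcpt8 and Cpa3 thus stood at nearly equal reads in the control library, with a ratio of 1.01, and at 1.87 in the cKO library, a 1.84-fold rise (95% interval 1.40 to 2.43). Each gene overlaps an annotated microRNA gene, Mir6949 in Mcpt8 and Mir7007 in Cpa3, neither of which had a row.

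Fcer1a and Ms4a2 encode the alpha chain, which binds IgE, and the beta chain, which amplifies signalling, of the high-affinity IgE receptor. Fcer1a lies on chromosome 1 from 173221284 to 173227214 and Ms4a2 on chromosome 19 from 11615523 to 11623719, both on the minus strand. Fcer1a had 123 control and 68 cKO reads, at levels of 119 and 77.3, a log2 change of -0.62 (95% interval -1.07 to -0.18). That was 1.53-fold lower, just past the threshold. Ms4a2 had 206 and 155 reads, at levels of 199 and 176, a log2 change of -0.18 (95% interval -0.49 to 0.13). The ratio of Ms4a2 to Fcer1a was 1.67 in control and 2.28 in cKO, a change of 1.36-fold whose interval of 0.933 to 1.99 included 1, so a difference between the chains was not detectable at this depth.

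Hdc, the enzyme that makes histamine from histidine (chromosome 2, 126593667 to 126619299, minus strand), had 1872 control and 2403 cKO reads. Its levels of 1811 and 2733 gave a log2 change of 0.59 (95% interval 0.51 to 0.68), or 1.51-fold, just past the threshold. With library totals, TMM or median-of-ratios scaling the value was 0.50, 0.57 or 0.58, which is under it. Hdc is also made by neutrophils and other myeloid cells, and 12 neutrophil granule genes had 258826 control and 299228 cKO reads. Their part in the Hdc value was not tested. The ratio of Hdc to Mcpt8 was 6.35 and 9.89, a 1.56-fold rise (95% interval 1.30 to 1.87).

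**Figure D3:**
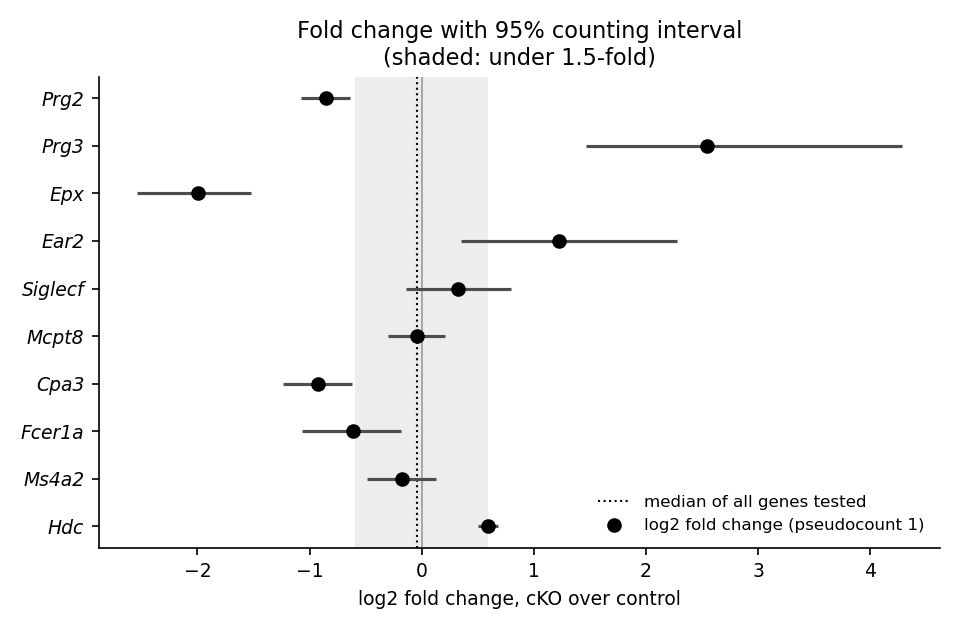
Log2 fold change of each of the 10 genes, cKO over control, as points with 95% counting intervals as lines, the range under 1.5-fold shaded and the median of all genes tested dotted. Prg3 (2.54) and Epx (-1.99) lie at the ends, and the intervals of Siglecf, Mcpt8 and Ms4a2 include 0.

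Per length, as reads per kilobase of the longest coding transcript per 1000000 reads (RPKM), the order of the genes was similar in both libraries at the top and changed at the bottom. Hdc stood first with 38.7 RPKM in control and 54.8 in cKO, then Prg2 with 32.7 and 17.0, Mcpt8 with 17.4 and 15.9, and Cpa3 with 9.92 and 4.90. Fcer1a and Ms4a2 followed, at 6.09 and 4.26 in control and 3.72 and 3.54 in cKO. Epx, Siglecf, Ear2 and Prg3 came last, at 3.58, 1.46, 1.03 and 0.312 RPKM in control and 0.832, 1.72, 2.35 and 1.95 in cKO, so Epx went from rank 7 to rank 10. The first place of Hdc in the control library depended on the length used. Over the union of all annotated exons, 6389 bases against 2392 for the coding transcript, Hdc ranked 3 there, behind Prg2 and Mcpt8, and still first in the cKO library.

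Genes of the same lineages and pathways, in 7 related lists, give the setting of the 10 genes. Of the 10 other eosinophil genes, 5 were higher, 1 was lower, 1 was under 1.5-fold and 3 had 0 reads in both libraries. The median was 0.48 with those 3 counted as unchanged, and 1.54 over the 7 genes above the floor. Among all genes tested 17.2% were higher and 24.2% lower. Ccr3, the eotaxin receptor, had 55 and 172 reads (1.86 on the log2 scale) and Il5ra, the receptor chain for IL-5, had 87 and 245 reads (1.72). Alox15, a lipoxygenase, had 22 and 56 reads (1.54), Ear3 59 and 154 (1.60) and Ear10 4 and 6 (0.68). Ear1, with 16 and 1 reads, was the lower one, and Cebpe, a transcription factor of granulocyte maturation, had 448 and 460 reads (0.27). The ratio of Ccr3 to Epx was 0.282 in control and 4.2 in cKO, a 14.9-fold rise (95% interval 9.23 to 24.0). That of Il5ra to Epx was 0.446 and 5.98, a 13.4-fold rise (95% interval 8.67 to 20.8).

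Of the 8 other basophil genes, 2 were higher, 1 was lower and 5 were under 1.5-fold, with a median of 0.11. With library totals, TMM or median-of-ratios scaling 1 was higher, since Csf1 lay just past the threshold. Il18rap, a chain of the IL-18 receptor also found on T and NK cells, had 2064 and 3127 reads (0.83), and Csf1 had 376 and 483 (0.59). Ifitm1 had 981 and 1077 reads (0.37). Cd200r3, an activating receptor of basophils and mast cells, was lower, with 109 and 19 reads, a log2 change of -2.24 (95% interval -3.07 to -1.58). Prss34, a basophil protease like Mcpt8, had 764 and 586 reads (-0.15), and the ratio of Mcpt8 to Prss34 was 0.386 and 0.415, a change of 1.07-fold (95% interval 0.874 to 1.32). The ratio of Mcpt8 to Cd200r3 was 2.71 and 12.8, a 4.73-fold rise (95% interval 2.78 to 8.38).

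Of the 14 mast cell genes, 2 were higher, 5 were lower, 2 were under 1.5-fold and 5 had 0 reads in both libraries. Of these calls, Mcpt2 and Mcpt9 (lower, 3 and 0 reads each) and Ltc4s (higher, 0 and 2 reads) did not exceed the floor of 3 reads in either library. The median of all 14 was 0.00, and it was -0.70 over the 6 genes above the floor, with the cKO value of Mcpt1 set at the floor. The 5 at 0 in both libraries were Mcpt4, Tpsb2, Tpsab1, Tpsg1 and Mrgprb2. Other mast cell genes of the list, Cma1 and Mrgprb1 among them, had reads in both. Kit, the receptor for stem cell factor on mast cells and on blood precursors, was lower with 2960 and 1408 reads (-0.84), and Mrgprb1 had 26 and 10 (-1.08). Mcpt1 had 12 and 0 reads, at least 3.40-fold lower in the cKO library against the floor. Cma1, a chymase, was higher with 22 and 97 reads (2.32), and Il1rl1, the IL-33 receptor, had 881 and 508 reads (-0.56). The ratio of Kit to Cpa3 was 10.2 in control and 10.8 in cKO, a change of 1.06-fold whose interval of 0.854 to 1.33 included 1. Low control counts often met 0 in cKO. Among 1224 genes that held 10 to 19 control reads, 610 (49.8%) had none in cKO.

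**Figure D4:**
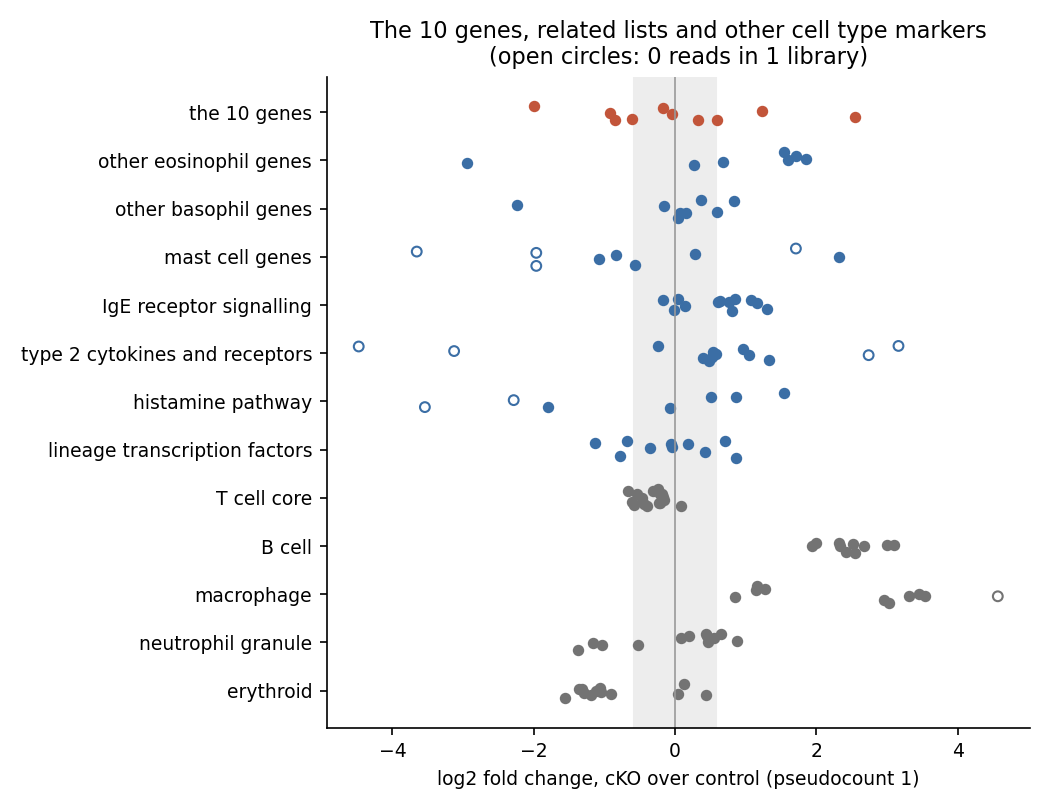
Log2 fold change, cKO over control, of every gene with reads, for the 10 genes, the 7 related lists and other cell type marker lists, with 1 point per gene and open circles for genes with 0 reads in 1 library. The 10 genes spread from -1.99 to 2.54, while the B cell and macrophage markers lie to the right and most erythroid markers to the left.

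Downstream of the IgE receptor, 8 of 12 signalling genes were higher, 0 were lower and 4 were under 1.5-fold, with a median of 0.70. Among all genes tested 17.2% were higher, and with library totals 6 of these 12 were. Fcer1a and Ms4a2 themselves were not higher. Fcer1g, the gamma chain shared with other Fc receptors, had 1574 and 2351 reads (0.81). Syk, the kinase it recruits, had 5385 and 11280 reads (1.30) and the Src family kinase Lyn 4030 and 7698 (1.17). Lat2 (1.07), Plcg2 (0.85), Inpp5d (0.76), Gab2 (0.64) and Btk (0.61) were the others. Most of these genes are also used by B cells and macrophages. All 10 B cell markers were higher, with a median of 2.47 and summed reads of 7736 and 36690, and all 10 macrophage markers were higher, with a median of 3.0 and summed reads of 3951 and 10643. Their part in these values was not tested.

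Of the 17 type 2 cytokines, chemokines and receptors, 5 were higher, 2 were lower, 6 were under 1.5-fold and 4, Il3, Il5, Il13 and Csf2, had 0 reads in both libraries. Their median was 0.48. With T cell core genes set equal, 10 were higher rather than 5. Il9r had 183 and 394 reads (1.33), Csf2ra, the GM-CSF receptor alpha chain, 1445 and 2406 (0.97) and Tslp 4 and 8 (1.05). Il33 had 22 control and 0 cKO reads, at least 6.24-fold lower against the floor. Il4ra and Csf2rb, the most abundant of the list, had 4513 and 5755 reads (0.58) and 3981 and 4854 reads (0.52).

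Around Hdc, the 8 genes of histamine transport, breakdown and reception were higher for 2, lower for 3, under 1.5-fold for 2 and at 0 in both libraries for 1, with a median of -0.04. Hnmt, which inactivates histamine, had 84 and 20 reads, a log2 change of -1.79 (95% interval -2.62 to -1.12), opposite to Hdc. Maob, which acts further down the same route, had 11 and 0 reads, 3.12-fold lower with the cKO value set at the floor. The upper end of its 95% interval was -1.09 on the log2 scale. Such a 0 was common, since 49.8% of all genes with 10 to 19 control reads had none in cKO. Hrh1 had 26 and 41 reads (0.86) and Hrh4 7 and 19 (1.54). Slc18a2, which loads histamine into granules, had 368 and 297 reads (-0.08) and Hrh2 395 and 477 (0.50).

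Of the 10 lineage transcription factors, 2 were higher, 3 were lower and 5 were under 1.5-fold, with a median of -0.05. With T cell core genes set equal 1 was lower, and at 2-fold 1 was lower and 0 higher. The lower ones were Gata1 with 1426 and 551 reads (-1.14), its partner Zfpm1 with 5578 and 2971 (-0.68) and Gata2 with 760 and 378 (-0.77). The higher ones were Spi1 with 2313 and 3220 reads (0.71) and Trib1 with 866 and 1344 (0.87), while Xbp1 had 4707 and 4541 (0.18). Gata1 and Zfpm1 are also genes of the red cell lineage, and 9 of 12 erythroid markers were lower and 0 higher, with a median of -1.09 and summed reads of 47942 and 21733. Their part in these values was not tested. Among the neutrophil granule genes, 3 of 12 were lower, namely the early granule genes Mpo, Prtn3 and Ctsg, 2 were higher and the median was 0.32. Of 8 megakaryocyte markers, 5 were higher and 1 lower, and of 10 Treg markers, 2 were higher and 2 lower. The 16 T cell core genes were higher for 0 and lower for 2, with a median of -0.28.

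**Figure D5:**
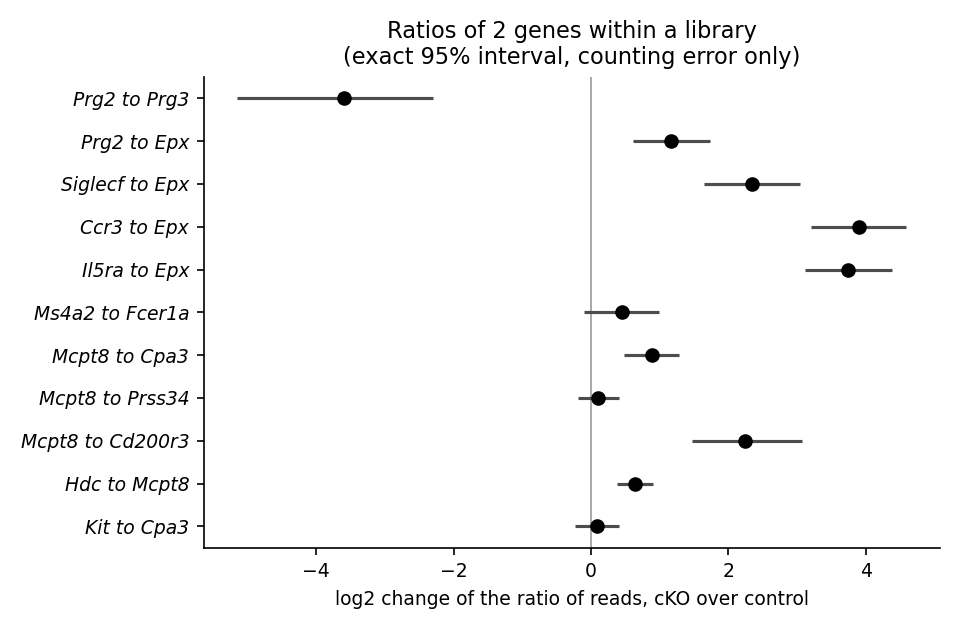
Log2 change, cKO over control, of the ratio of reads of 2 genes within a library, with exact 95% intervals for counting error, for 11 pairs. The ratio of Prg2 to Prg3 fell, the ratios to Epx rose, and the intervals of Ms4a2 to Fcer1a, Mcpt8 to Prss34 and Kit to Cpa3 include 0.

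The scale chosen for the libraries set the direction of 2 of the 10 genes. When the libraries were set equal on the T cell core genes, Mcpt8 went from -0.05 to 0.24 and Ms4a2 from -0.18 to 0.11. On that scale the median of all genes tested moved by 0.28 to 0.24, the share of changed genes that were higher went from 41.6% to 58.3%, and Epx (-1.72) and Cpa3 (-0.64) were the genes still lower past 1.5-fold, with Prg2 at -0.57 and Fcer1a at -0.34. Prg3 (2.82), Ear2 (1.50), Hdc (0.88) and Siglecf (0.60) were higher on it.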

How the data were processed

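RNA-seq was performed on 1 control and 1 cKO library of splenic Treg cells. The authors deposited 1 value per gene and library, a signal equal to whole reads divided by 1 size factor per library; 100% of values were whole multiples of the smallest, within 0.01 of a read. Per the labels, reads were aligned to mm10 with TopHat; the submitters' processing notes also name bcl2fastq 2.0, STAR, StringTie and DESeq2, without their roles. The annotation and counter are not given in the sources used here, nor is strand.

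Changes were computed on log2(level + 1), with 1.5-fold as the threshold and a minimum mean level of 1 for the background. With 1 library per genotype no test was planned. Ratios within a library have exact conditional 95% intervals. Symbols were matched to GENCODE vM21 on GRCm38 (mm10). Python 3.11.15 with scipy 1.17.1, edgeR 4.0.16 and DESeq2 1.42.0 (R 4.3.3) were used. The steps were tested on simulated data that held counting error only.

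The genes named are the 10 genes, Mettl14, Foxp3 and, from each related list, the genes past 1.5-fold with at least 10 reads over both libraries and the 2 genes with the most reads. Members and lists were chosen with earlier results of these data known. The pairs for ratios, the motifs and Prss34, Mpo, Prtn3, Ctsg, Mcpt2, Mcpt9, Ltc4s, Il4, Ccl11, Ccl24 and the genes at 0 were chosen after their values were seen. The binomial test (Benjamini-Hochberg adjusted p under 0.1, 1.5-fold, TMM-scaled totals) and the edgeR exact test, with at least 10 reads, were added after the files were read. The alternatives were pseudocounts of 0.1 and 5, other filters and scalings, and a 2-fold threshold.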

Additional observations from a re-analysis of the deposited data

How the results depend on the processing

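No paired analysis was possible because the labels give 1 library per genotype, and for the same reason no library could be left out. Among all genes tested, the number lower went from 4028 to 2035 with a minimum mean level of 10, 1904 with genes above 0 in both libraries, 2682 with the exact binomial test and 569 with the edgeR exact test, and the number higher from 2864 to 4547 with T cell core genes set equal, 1722 with a 2-fold threshold and 229 with the edgeR exact test. Of the 10 genes, 4 were lower, against 2 with T cell core genes set equal, 1 with a 2-fold threshold and 0 with the edgeR exact test, which also called 0 higher. The data simulated to test the steps held counting error only. In them the edgeR setting, whose coefficient of variation was assumed, recovered 0% of the genes changed 4-fold. The exact binomial test, which assumes counting error only, recovered 95.5%, an outcome that the simulation favoured in advance. The simulation therefore cannot weigh the tests against each other. On the deposited values the edgeR test did call genes, and its 0 of the 10 genes depends on the assumed coefficient. The median of the 10 genes went from -0.11 to 0.17 with T cell core genes set equal. Their sum went from 0.16 to 0.067 with library totals, 0.44 with T cell core genes set equal and -0.52 without Hdc. Of the related genes, 26 were higher, and 14 with a 2-fold threshold, where the IgE signalling genes went from 8 higher to 3, the basophil genes from 2 to 0 and the histamine genes from 2 to 1. The mast cell genes went from 2 higher to 1 with a pseudocount of 5. The sum of the Ear rows, an alternative chosen after seeing the data, went from 0.93 to -0.29 without Ear3. Prg3, Epx, Ear2 and Cpa3 stayed past 1.5-fold in the same direction under every pseudocount and scaling tried. Depth limits Prg3 and Ear2, at 6 and 15 reads in the control library.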

Other observations

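The other rows of the Ear and Siglec families were looked at after the values of Ear2 and Siglecf were known. Ear7 had 26 control and 4 cKO reads, a log2 change of -2.24 (95% interval -4.45 to -0.94), like Ear1 and unlike Ear2 and Ear3, and Ear12 had 1 read in each. Over all 9 Ear rows the summed reads were 121 and 197, a log2 change of 0.93 (95% interval 0.60 to 1.28). Ear3, which has no entry in the annotation used, held 59 and 154 of these reads. Without it the sum was 62 and 43 reads, a log2 change of -0.29 whose interval of -0.89 to 0.29 included 0.

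Of the 5 rows named Siglec and a letter or digit, Siglecf was the one under 1.5-fold. Siglecg, an inhibitory receptor of B cells, had 373 and 1508 reads (2.25 on the log2 scale), and Siglec1, of splenic macrophages, 53 and 136 (1.57). Siglece, of myeloid cells, had 555 and 1201 reads (1.35), and Siglech, of plasmacytoid dendritic cells, 105 and 200 (1.16).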
